A study of Homo sapiens with 4 samples.

Results

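The genes described here encode subunits of activator protein 1 (AP-1), a family of transcription factors that bind DNA as dimers. They were chosen by symbol, with earlier results of these data known. They comprise JUN, JUNB, JUND, FOS, FOSB, FOSL1, FOSL2, ATF3, MAFF and BATF3. All 10 symbols were found among the 56655 rows of the count tables, and all 10 were among the 16417 genes that passed the filter on low counts. RNA-seq had been performed in OVCAR5 cells, an established ovarian cancer cell line. One group was stably transduced with a lentiviral nontargeting control short hairpin RNA (shCtrl, n = 2 libraries) and the other with a hairpin directed at the forkhead transcription factor gene FOXK2 (shFOXK2, n = 2 libraries). Cells of both groups had been selected with puromycin and grown in serum. The study describes the libraries as biological duplicates, and whether they came from separate transductions was not stated. For the RNA-seq the study's legends name a single FOXK2 hairpin, so the hairpin and the target cannot be told apart in these libraries.

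AP-1 proteins share a basic region that contacts DNA and a leucine zipper that holds 2 subunits together. JUN-type subunits can pair with each other or with FOS-type subunits, whereas FOS-type subunits need a partner of another kind. FOS, FOSB, JUNB and ATF3 are classic immediate early genes, transcribed within minutes of a stimulus, and FOSL1 and FOSL2 follow later and lack the strong activation domain of FOS. In carcinoma cells AP-1 is known for its part in invasion, growth factor responses and inflammatory gene expression.

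Library totals ran from 14284005 to 21950873 counts. FOXK2 (ENSG00000141568.21, chromosome 17, 82519713 to 82644662, plus strand) gave 1796 and 1499 counts in the control libraries against 1086 and 1084 with shFOXK2. Its log2 fold change was -0.36 (SE 0.25, edgeR adjusted p = 0.257), and over all alternatives, leaving out a library included, it lay between -0.57 and -0.03. In CPM (counts scaled to library size) FOXK2 was at 80.5 and 93.4 with shCtrl against 76.3 and 59.6 with shFOXK2. The groups did not overlap, but the gap between them was smaller than the spread within either. No fall of the targeted transcript could thus be told from the library spread. FOXK2 therefore does not serve as a check of the labels, by which the groups are named here. By qRT-PCR and Western blot, the study reports reduced FOXK2 mRNA and protein in OVCAR5 cells transduced with shFOXK2. These assays were made apart from the RNA-seq libraries. FOXK2 overlaps other annotated transcripts. Of the epithelial markers all 8 were detected, and the sum over them was 4241 to 5751 CPM in the 4 libraries. CDH1, which encodes E-cadherin, had 459 and 260 counts with shCtrl but 13 and 24 with shFOXK2. No other epithelial marker fell as far. CLDN4 went from 224 and 282 CPM to 151 and 98.1. KRT7 was at 481 and 659 CPM with shCtrl against 646 and 653 with shFOXK2, and EPCAM at 105 and 94.4 against 80.3 and 87.1. The serous ovarian list summed to 37 and 33.2 CPM with shCtrl and 18.8 and 15.8 with shFOXK2, and WT1 in it had at most 2 counts. Its members moved in opposite directions. MUC16 had 397 and 145 counts against 0 and 8, and PAX8 had 351 and 335 against 156 and 162. MSLN rose, with 75 and 52 counts against 112 and 116. CDH5, of the endothelial list, had 76 and 33 counts against 0 and 0, and ITGAM, of the leukocyte list, 161 and 130 against 3 and 22. These were the largest fitted falls of their lists. PECAM1 (154 and 90 counts against 9 and 29) and CD14 (389 and 358 against 124 and 168) fell less. LYZ, of the leukocyte list, was lower at few counts (14 and 4 against 0 and 2). TIE1, ITGAX and CSF1R showed no such fall. In CPM, TIE1 was at 1.39 and 1.5 against 2.74 and 1.04, and ITGAX at 12.3 and 12.3 against 12 and 10.2. CSF1R was at 0.403 and 0.249 CPM against 0.844 and 0.604. Among 12 leukocyte markers 3 had 0 counts in every library and PTPRC had 0, 0, 3 and 0. The summed CPM of the leukocyte list was 38 and 43.2 in shCtrl and 22.2 and 21.4 in shFOXK2. The fibroblast list summed to 20.5 and 18.9 CPM in shCtrl and 16.5 and 13.6 in shFOXK2, and the endothelial list to 12 and 9.22 against 3.37 and 3.08. Most of the fibroblast sum was COL1A1, with 324 and 215 counts in shCtrl against 226 and 229 in shFOXK2. PDGFRB, of the same list, fell from 127 and 87 counts to 2 and 8. The rest of that list had at most 5 counts in any library. The part of these markers in the results below was not tested. In such bulk RNA, fewer cells of one kind and less RNA per cell cannot be told apart.

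The AP-1 genes moved in both directions. Levels are given as CPM after TMM scaling (trimmed mean of M values), and a call is an adjusted p under 0.05 in the edgeR quasi-likelihood test over all genes. FOS, FOSB, FOSL1 and BATF3 were higher in shFOXK2, and JUNB, JUND, FOSL2 and MAFF were lower. Thus 8 of the 10 members (80%) were called, where 48.4% of all 16417 tested genes were. The 4 higher members stand beside 25.7% of tested genes called higher, and the 4 lower members beside 22.7% called lower. JUN and ATF3 were not past the threshold. The groups did not overlap for 9 members (90%), against 75.4% of tested genes. Since the members were chosen with earlier results of these data known, these percentages describe them and test nothing. The median log2 fold change of the 10 members was -0.32, and it was 0.04 over all tested genes.

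**Figure D1:**
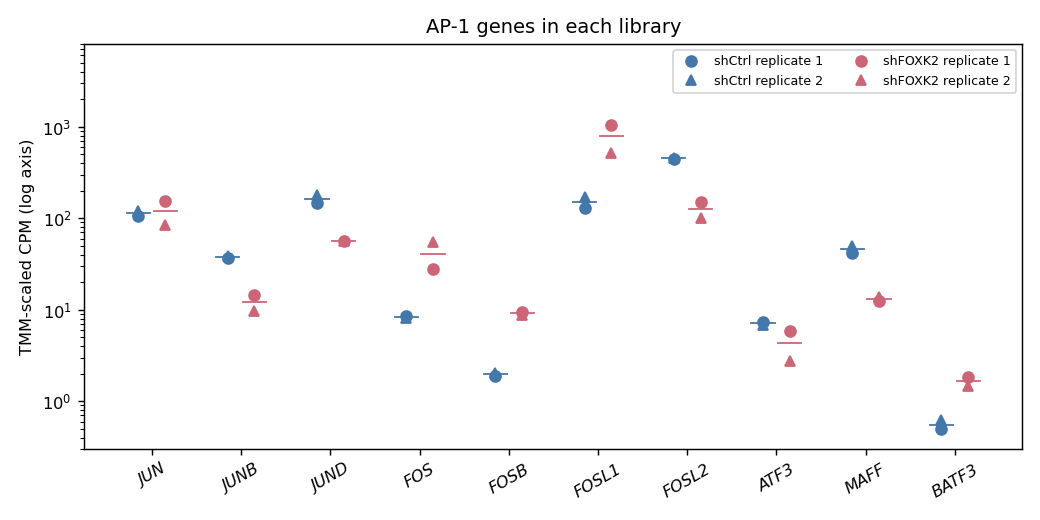
TMM-scaled CPM (log axis) of the 10 AP-1 genes in each library, with circles for replicate 1, triangles for replicate 2 and a bar at the mean of 2 libraries. FOSL1 rises from 129.9 and 169.9 to 1054 and 513 CPM while FOSL2 falls from 440.2 and 458 to 150.0 and 100.3, and the JUN libraries of the groups overlap.

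FOSL1 encodes FRA-1, a FOS-type subunit known for high levels in invasive carcinoma cells. FOSL1 (ENSG00000175592.9, chromosome 11, 65892049 to 65900573, minus strand) gave 2897 and 2728 counts in the control libraries against 14988 and 9343 with shFOXK2. The shFOXK2 libraries were far above both controls and also differed from each other, with replicate 1 the higher. FOSL1 rose from a mean CPM of 149.9 ± 28.3 to one of 783 ± 382 (± SD, n = 2 per group), 5.23-fold in the ratio of means. The log2 fold change was 2.39 (SE 0.32, edgeR adjusted p = 7.91e-05). Without shFOXK2 replicate 1 it was 1.75, and FOSL1 remained past the threshold.

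FOSL2 encodes FRA-2, the closest relative of FRA-1. FOSL2 (ENSG00000075426.12, chromosome 2, 28392448 to 28417317, plus strand) gave 9820 and 7352 counts in the control libraries against 2133 and 1826 with shFOXK2. Its controls lay close together and both shFOXK2 libraries lay well below them. FOSL2 fell from a mean CPM of 449 ± 12.6 to one of 125 ± 35.1 (± SD, n = 2 per group), to 27.9% of control. The log2 fold change was -1.84 (SE 0.26, edgeR adjusted p = 9.24e-05), a fall within 1 SE of that of MAFF (-1.80). With the offset on GC content JUND (-1.56) and JUNB (-1.53) stood below FOSL2 (-1.51), and without shFOXK2 replicate 2 MAFF (-1.90) stood below FOSL2 (-1.61), so FOSL2 is not set apart as the largest fall. The relatives FOSL1 and FOSL2 thus changed in opposite directions, each by more than the spread between its replicates.

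FOS, the founding member and a textbook target of serum response factor, was scarce in control cells. FOS (ENSG00000170345.10, chromosome 14, 75278826 to 75282230, plus strand) gave 192 and 130 counts in the control libraries against 395 and 992 with shFOXK2. Here shFOXK2 replicate 2 was the higher of its pair, the reverse of FOSL1. FOS rose from a mean CPM of 8.35 ± 0.359 to one of 41.1 ± 18.9 (± SD, n = 2 per group), 4.92-fold. The log2 fold change was 2.30 (SE 0.34, edgeR adjusted p = 0.000136), and leaving out shFOXK2 replicate 2 gave 1.70 while leaving out shFOXK2 replicate 1 gave 2.68. FOSB, its paralog with a similar stimulus response (ENSG00000125740.15, chromosome 19, 45467995 to 45475179, plus strand), gave 42 and 33 counts in the control libraries against 136 and 159 with shFOXK2. The replicates of FOSB agreed closely, and FOSB rose from a mean CPM of 1.97 ± 0.122 to one of 9.15 ± 0.584 (± SD, n = 2 per group), which on the log2 scale was 2.21 (SE 0.34, edgeR adjusted p = 0.000209). FOSB lies across from ERCC1 on the other strand without shared exon bases.

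The promoter of FOS is shown because it carries a TATA box, capitalised, as do those of FOSB and JUNB among the 8 members present in the RefSeq promoter table (GRCh38.p14). The stretch is chr14:75278618-75278817 on the plus strand, from 210 to 11 bases before the start.
FOS: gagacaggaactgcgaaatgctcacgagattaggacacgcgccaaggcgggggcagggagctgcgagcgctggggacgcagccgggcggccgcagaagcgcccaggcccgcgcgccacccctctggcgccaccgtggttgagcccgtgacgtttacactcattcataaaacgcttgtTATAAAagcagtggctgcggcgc
The letters TATAAA, on either strand, occurred in 11.1% of 27305 promoters within the 250 bases before the start. FOSL1 and BATF3 were not matched in the promoter table.

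JUNB encodes a JUN-type subunit with weaker activating capacity than JUN that can restrain it. JUNB (ENSG00000171223.6, chromosome 19, 12791486 to 12793315, plus strand) gave 821 and 628 counts in the control libraries against 207 and 175 with shFOXK2. Both shFOXK2 libraries lay below both controls. JUNB fell from a mean CPM of 38 ± 1.64 to one of 12.1 ± 3.49 (± SD, n = 2 per group), to 31.8% of control, which on the log2 scale was -1.65 (SE 0.29, edgeR adjusted p = 0.000493). JUNB shares 259 exonic bases with HOOK2 on the other strand, whose own counts were 586 and 506 in controls against 506 and 691 with shFOXK2. JUND, the most constantly expressed of the JUN genes in many tissues (ENSG00000130522.6, chromosome 19, 18279694 to 18281622, minus strand), gave 3252 and 2868 counts in the control libraries against 796 and 1016 with shFOXK2. JUND fell from a mean CPM of 162 ± 23.3 to one of 55.9 ± 0.102 (± SD, n = 2 per group), which on the log2 scale was -1.54 (SE 0.24, edgeR adjusted p = 0.000223).

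JUN, the founding JUN-type gene and a main substrate of the JNK kinases, was not past the threshold. JUN (ENSG00000177606.9, chromosome 1, 58776845 to 58784048, minus strand) gave 2351 and 1947 counts in the control libraries against 2209 and 1527 with shFOXK2. In CPM the shFOXK2 libraries, at 155 and 83.9, lay on either side of the controls at 105 and 121. The log2 fold change was 0.08 with a 95% interval of -0.54 to 0.69 (edgeR adjusted p = 0.847). Leaving out shFOXK2 replicate 1 gave -0.46 and leaving out shFOXK2 replicate 2 gave 0.42. Leaving out shCtrl replicate 1 gave -0.05, so these libraries do not settle a direction for JUN. The intervals of JUNB, -2.28 to -1.03, and of JUND, -2.06 to -1.02, did not reach that of JUN. The differences between these genes were not tested.

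The promoters of JUNB and JUND are shown because each held a match among the motifs searched. The motifs were the AP-1 element TGACTCA, the cyclic AMP response element TGACGTCA, the forkhead-type sequence TGTTTAC, the TATA box TATAAA, the CArG box bound by serum response factor and the kappa B motif, each on both strands over 250 bases. The JUNB stretch is chr19:12791276-12791475 on the plus strand, with TGTTTAC from 166 to 160 and TATAAA from 31 to 26 bases before the start in capitals. The JUND stretch is chr19:18281633-18281832 on the minus strand, with TGACGTCA from 200 to 193 bases before the start in capitals.
JUNB: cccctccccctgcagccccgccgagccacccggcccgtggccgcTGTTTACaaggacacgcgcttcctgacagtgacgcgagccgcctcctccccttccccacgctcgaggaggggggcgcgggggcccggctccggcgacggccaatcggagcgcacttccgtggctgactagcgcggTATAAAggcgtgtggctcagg
JUND: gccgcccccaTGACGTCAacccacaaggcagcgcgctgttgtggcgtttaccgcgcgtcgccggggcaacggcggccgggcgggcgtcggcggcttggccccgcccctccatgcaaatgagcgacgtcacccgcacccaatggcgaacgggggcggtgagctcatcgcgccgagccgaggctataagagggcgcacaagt
JUNB was the 1 member of 8 with TGTTTAC, which occurred in 2.98% of all promoters. JUND and MAFF held TGACGTCA, which occurred in 1.77%. None of the 8 held TGACTCA (4.16% of all promoters), the CArG box (1.14%) or the kappa B motif (9.57%) in this window. Sequence farther upstream was not searched, for FOS as for the others, so an element there would be missed. A match is a run of letters and was not tested here as a binding site. By chromatin immunoprecipitation and sequencing in OVCAR5 cells, the study reports FOXK2 at regulatory regions of JUNB. Whether those regions include this match was not examined here.

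MAFF encodes a small MAF protein, which has a leucine zipper but no activation domain and pairs with FOS-type and NRF2-type factors. MAFF (ENSG00000185022.12, chromosome 22, 38200767 to 38216507, plus strand) gave 941 and 800 counts in the control libraries against 179 and 250 with shFOXK2. The groups were well apart and the replicates close. MAFF fell from a mean CPM of 46 ± 5.41 to one of 13.2 ± 0.813 (± SD, n = 2 per group), to 28.6% of control, which on the log2 scale was -1.80 (SE 0.27, edgeR adjusted p = 0.00015). It shares 326 exonic bases with PLA2G6 on the other strand, which gave 79 and 76 counts in the control libraries against 66 and 107 with shFOXK2. The cyclic AMP response element of its promoter (chr22:38201929-38201958, plus strand, capitals from 54 to 47 bases before the RefSeq start) is printed beside that of JUND as the other match.
MAFF: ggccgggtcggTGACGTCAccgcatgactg

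ATF3 encodes a stress-induced factor that pairs with JUN proteins and often represses. ATF3 (ENSG00000162772.18, chromosome 1, 212565334 to 212620777, plus strand) gave 165 and 109 counts in the control libraries against 84 and 50 with shFOXK2. Expressed as CPM these were 7.4 and 6.79 against 5.91 and 2.75, so the groups did not overlap, but the shFOXK2 libraries differed more from each other than replicate 1 did from the controls. The log2 fold change was -0.73 with a 95% interval of -1.55 to 0.10 (edgeR adjusted p = 0.134). Without shFOXK2 replicate 1 it was -1.39 (edgeR adjusted p = 0.00326), with the lone shFOXK2 library assumed to vary like the controls. BATF3, a factor without an activation domain that is best known in dendritic cells (ENSG00000123685.9, chromosome 1, 212686417 to 212699840, minus strand), gave 11 and 10 counts in the control libraries against 26 and 27 with shFOXK2. It rose from a mean CPM of 0.558 ± 0.0918 to one of 1.66 ± 0.244 (± SD, n = 2 per group), which on the log2 scale was 1.57 (SE 0.46, edgeR adjusted p = 0.012). At these counts the call was not firm. The adjusted p was 0.147 by DESeq2, 0.131 by edgeR without shCtrl replicate 1 and 0.0652 by edgeR without shCtrl replicate 2. The dendritic cell markers CLEC9A and XCR1 had 0 counts in every library.

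**Figure D2:**
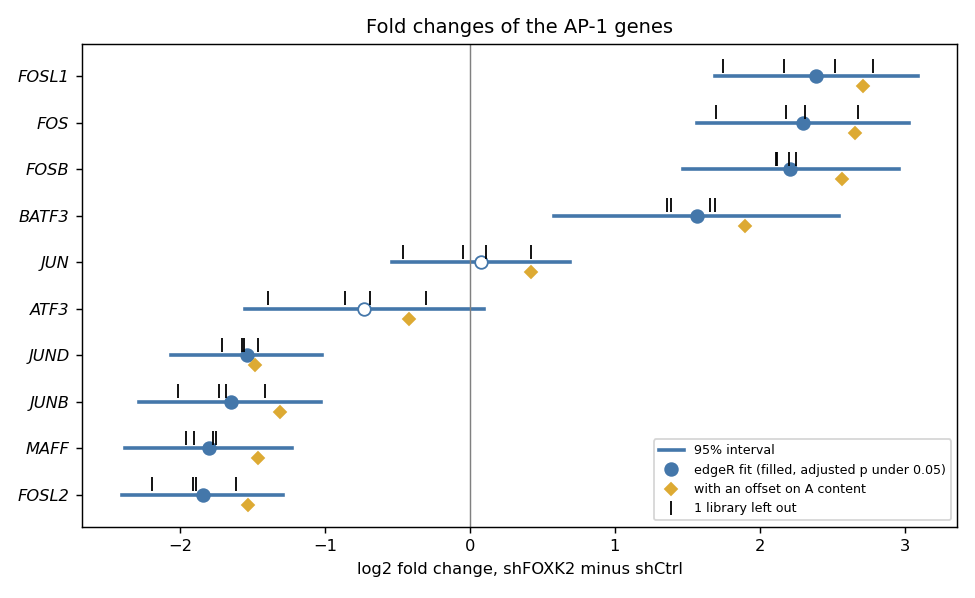
Log2 fold changes (shFOXK2 minus shCtrl) of the 10 AP-1 genes, with circles and 95% intervals from the edgeR fit (filled where the adjusted p is under 0.05), diamonds from a fit with an offset on transcript A content and ticks from fits that each left out 1 library. The 4 called rises and 4 called falls keep their sides of 0 in each of these fits, while the ticks of JUN run from -0.46 to 0.42.

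Transcript composition moved with the comparison over all genes and is therefore given beside the members. The canonical AP-1 transcripts were 13.8% (JUND) to 25.7% (ATF3) A, with a median of 21.9%, against 25.9% over 13114 protein-coding tested genes. Genes within 1 percentage point of each member's A content had median log2 fold changes between -0.41 and -0.23. With a smooth offset on A content, which moved the median of all genes by 0.25, FOSL1, FOS, FOSB and BATF3 had log2 fold changes of 2.71, 2.66, 2.57 and 1.90. FOSL2, JUND, MAFF and JUNB had -1.53, -1.48, -1.46 and -1.31. The 8 calls were the same under this offset, and JUN (0.42) and ATF3 (-0.42) were again not past the threshold.

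Levels of different members were compared as CPM per kilobase of the canonical transcript. In shCtrl the order of mean levels was FOSL1, JUND, FOSL2, JUN, JUNB, MAFF, FOS, ATF3, BATF3 and FOSB. FOSL1 (88.1 ± 16.7 CPM per kilobase, SD, n = 2) and JUND (84.1 ± 12.1) were not separated by their libraries, nor were JUNB (20.7 ± 0.896) and MAFF (19.4 ± 2.28). In shFOXK2, FOSL1 stood first at 460.3 ± 225 CPM per kilobase, with both libraries above those of JUN (36.7 ± 15.5). JUN and JUND (29 ± 0.0529) were not separated there, nor were FOS (19.5 ± 8.98) and FOSL2 (18.6 ± 5.23). At the low end ATF3 (2.23 ± 1.15) was separated neither from FOSB (2.42 ± 0.155) nor from BATF3 (1.98 ± 0.291), whereas both FOSB libraries lay above both BATF3 libraries. The place of BATF3 above FOSB in shCtrl rests on its canonical transcript of 836 bases, and with its longest annotated transcript of 2357 bases BATF3 would stand below FOSB.

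The makeup of the FOS-type transcripts differed between groups. FOSL1 made up 52.1% and 57.9% of the summed FOS-type CPM per kilobase in control libraries against 94.2% and 87.5% with shFOXK2. FOSL2 made up 44.8% and 39.6% in shCtrl and 3.4% and 4.33% in shFOXK2. Per kilobase, FOSL1 was thus at 1.16 and 1.46 times the level of FOSL2 in control libraries. In shFOXK2 libraries FOSL1 was at 27.7 and 20.2 times the level of FOSL2. These ratios within each library do not depend on scaling between libraries, but they depend on the transcript lengths, 1702 bases for FOSL1 and 6713 for FOSL2. In CPM not divided by length, FOSL2 was above FOSL1 in control libraries (440.2 and 458 against 129.9 and 169.9). FOS made up 2.79% and 2.23% in shCtrl and 2.01% and 7.51% in shFOXK2, so although its level was higher in both shFOXK2 libraries its share overlapped between groups. FOSB was under 1% of the sum in every library.

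Among JUN-type transcripts, JUN took 25.3% and 24.6% of the summed CPM per kilobase in shCtrl and 56.3% and 43% in shFOXK2. JUND took 59% and 61.2% in shCtrl and 34.3% and 48.3% in shFOXK2, and JUNB 15.7% and 14.1% against 9.39% and 8.76%. The larger share of JUN stood beside lower levels of JUNB and JUND. The level of JUN itself was 47.7 and 25.8 CPM per kilobase in shFOXK2, on either side of 32.4 and 37.2 in shCtrl. The JUN-type sum was 128 and 151 CPM per kilobase in shCtrl and 84.6 and 59.9 in shFOXK2, whereas the FOS-type sum was 146 and 172 against 657 and 345. Per library the FOS-type sum was 1.14 and 1.14 times the JUN-type sum in shCtrl and 7.76 and 5.75 times in shFOXK2. With 2 libraries in each group a 2-sided exact permutation test cannot go below p = 0.333, so these sums and shares carry no test.

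**Figure D3:**
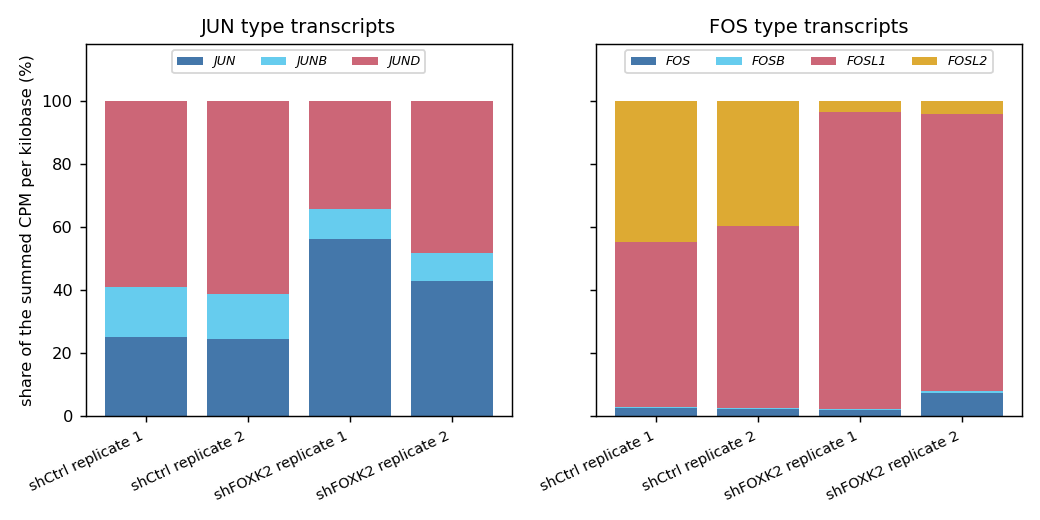
Share (%) of each gene in the summed CPM per kilobase of JUN-type (left) and FOS-type (right) transcripts in each library. FOSL2 takes 44.8% and 39.6% of FOS-type transcripts in control libraries against 3.4% and 4.33% with shFOXK2.

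To name genes with a similar pattern, the centred log2 CPM of 10163 genes averaging at least 3 on that scale was compared with that of FOSL2 and FOSL1, the members with the lowest and highest fitted log2 fold change. Over the 4 libraries the nearest to FOSL2 were NFKB2, an NF-kappa B subunit gene, VASH1 and SGK1, a serum-regulated kinase gene, with root mean square differences of 0.0426, 0.0458 and 0.0488 on the log2 scale. NFKB2 had a log2 fold change of -1.78 (SE 0.27) and SGK1 of -1.89 (SE 0.25). The nearest to FOSL1 were RRS1, a ribosome assembly gene, GAL, which encodes the peptide galanin, and CD3EAP, a subunit gene of RNA polymerase I, at 0.121, 0.126 and 0.133. Like FOSL1, they were higher in shFOXK2 replicate 1 than in replicate 2, with CPM of 125 and 70.9 for RRS1. They were picked for likeness over these same 4 libraries, so the shared order comes with the choice.

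The remaining genes around AP-1 were described from lists written by hand with earlier results of these data known. Their percentages called are descriptions and not tests. Of 10 tested bZIP relatives, 3 were called (30%, against 48.4% of tested genes), all lower. MAFK, a small MAF gene like MAFF, fell from a mean CPM of 76 ± 6.03 to one of 21.9 ± 1.96 (± SD, n = 2 per group), which on the log2 scale was -1.80 (SE 0.26, edgeR adjusted p = 0.000111). BATF, which encodes a relative of BATF3, gave 550 and 530 counts in the control libraries against 101 and 199 with shFOXK2 (log2 fold change -1.67, SE 0.31). It fell while BATF3 rose. MAFA, a large MAF gene known from pancreatic beta cells, fell with a log2 fold change of -1.44 (SE 0.35). The third small MAF gene, MAFG, named after its values were seen, was at 68 ± 8.05 and 92.7 ± 17.9 CPM and was not past the threshold (log2 fold change 0.45, edgeR adjusted p = 0.159). With the offset on GC content 4 were lower and 2 higher, and with that on A content 3 were lower and 2 higher.

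Among kinases upstream of AP-1, 9 of 24 were called (37.5%, against 48.4% of tested genes), 7 lower and 2 higher. With the offset on A content 3 were lower and 3 higher, whereas with that on GC content 6 were lower and 2 higher. RPS6KA5, which encodes the nuclear kinase MSK1 acting on histone H3 and CREB at immediate early genes, gave 378 and 134 counts in the control libraries against 1320 and 1872 with shFOXK2, or 2.94 on the log2 scale (SE 0.33, edgeR adjusted p = 2.14e-05). The other rise was of MAPK10, a JNK gene at low counts named after its values were seen (log2 fold change 1.72, edgeR adjusted p = 0.0265). MAP3K1, MAPK7 and MAP2K5 fell, with log2 fold changes of -1.12, -1.03 and -0.81. MAP2K5 encodes the kinase that activates the product of MAPK7. The JNK genes MAPK8 and MAPK9, named after their values were seen, had log2 fold changes of 0.05 and 0.08 and were not past the threshold. Without shFOXK2 replicate 2 the count was 2 of 24.

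Serum response factor and its partners control FOS in the textbook account. Of 6 tested genes 2 were called (33.3%, against 48.4% of tested genes), both lower. With the replicate number as a block 1 was lower and 1 higher. The 2 called without the block were MRTFA, an actin-sensing coactivator, at a log2 fold change of -1.27 (SE 0.28), and ELK1, at -0.74 (SE 0.27). Without shFOXK2 replicate 2, and also with either composition offset, 1 was called. Of 18 other immediate early genes tested, 8 were called (44.4%, against 48.4% of tested genes), 6 lower and 2 higher. With the offset on A content 4 were lower and 4 higher, and with that on GC content 4 were lower and 2 higher. IER3 fell from a mean CPM of 302 ± 40.4 to one of 50.9 ± 3.33 (± SD, n = 2 per group), or -2.57 on the log2 scale (SE 0.25, edgeR adjusted p = 6.48e-06). DUSP1, which encodes a phosphatase of MAP kinases, MYC and CCN1 fell by 1.45, 1.05 and 0.72 on the log2 scale. KLF2 and IER2 rose, with log2 fold changes of 2.44 (SE 0.31) and 1.23 (SE 0.26). EGR1, named after its values were seen, gave 1137 and 582 counts in the control libraries against 602 and 1988 with shFOXK2. Its higher shFOXK2 library, replicate 2, was also that of FOS, and EGR1 was not past the threshold (log2 fold change 0.80, edgeR adjusted p = 0.089).

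**Figure D4:**
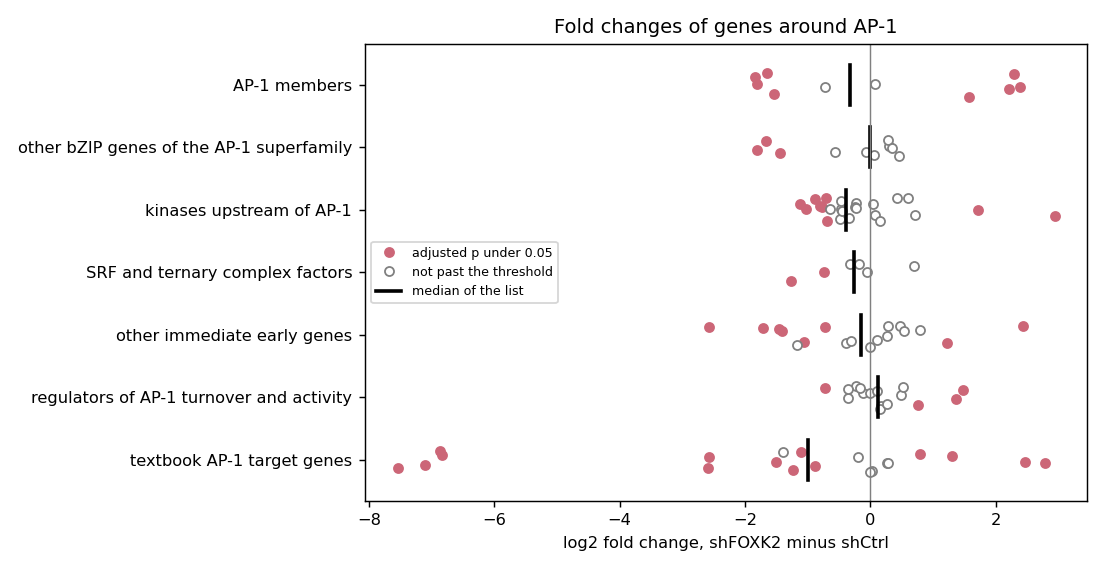
Log2 fold changes (shFOXK2 minus shCtrl) of tested genes in each list, with filled circles for an edgeR adjusted p under 0.05, open circles for other genes and a bar at the list's median. The AP-1 members fall into a group between 1.57 and 2.39 and a group between -1.84 and -1.54, with JUN and ATF3 between them, and 4 of the textbook target genes lie between -7.54 and -6.84.

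Regulators of AP-1 turnover and activity had 4 calls among 16 tested genes (25%, against 48.4% of tested genes), 3 higher and 1 lower. FBXW7, which encodes the substrate receptor of a ubiquitin ligase acting on JUN, rose from a mean CPM of 12.8 ± 4.46 to one of 35.8 ± 3.91 (± SD, n = 2 per group), or 1.48 on the log2 scale (SE 0.30, edgeR adjusted p = 0.00138). USP28, a deubiquitinase known to oppose FBXW7, had a log2 fold change of -0.73 (SE 0.27, edgeR adjusted p = 0.0366) and was the 1 lower call. No gene of this list was called lower with library size alone, with at least 10 counts in every library, with the replicate block, or without shCtrl replicate 1, shFOXK2 replicate 1 or shFOXK2 replicate 2. COPS5, first described as a coactivator of JUN, rose by 1.37 on the log2 scale. The count was 2 without shCtrl replicate 1 and without shFOXK2 replicate 1, and 8 with the offset on GC content.

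Textbook AP-1 target genes moved in both directions. Of 20 tested, 14 were called (70%, against 48.4%), 10 lower and 4 higher, with a median log2 fold change of -0.99. The largest falls were of inflammatory genes that are also textbook NF-kappa B targets. CCL2 gave 3115 and 2382 counts in the control libraries against 9 and 16 with shFOXK2, or -7.54 on the log2 scale (SE 0.35, edgeR adjusted p = 6.8e-08). CXCL8 went from 2984 and 1263 counts to 20 and 4, PTGS2 from 1750 and 709 to 5 and 12, and IL6 from 491 and 368 to 6 and 0, with log2 fold changes of -7.10, -6.87 and -6.84. AREG, which encodes an EGF receptor ligand, rose from a mean CPM of 46.3 ± 3.17 to one of 258 ± 105 (± SD, n = 2 per group), or 2.47 on the log2 scale (SE 0.30). VIM, which encodes the intermediate filament vimentin, rose by 0.79 (SE 0.24) on the log2 scale. The other rises were of SPP1 and TGM1, named after their values were seen. The count was 9 of 14 when at least 10 counts were required in every library, where 6008 of 13625 genes were called. That filter left out CCL2, CXCL8, PTGS2 and IL6, each with a shFOXK2 library under 10 counts.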

How the data were processed

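RNA-seq was performed by the authors on poly(A) RNA from 4 OVCAR5 libraries, made with a kit whose name does not say that it keeps strand and sequenced as single-end reads. The authors aligned reads to hg38 with STAR 2.5.2 and deposited raw HTSeq counts per gene symbol, without normalization. The annotation and strand setting are not given in the sources used here, and the deposited tables hold no HTSeq summary rows. Sample titles gave the groups and replicate numbers.

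The filterByExpr function removed low counts, and libraries were scaled by TMM and compared by the 2-sided quasi-likelihood F test of edgeR 4.0.16 (R 4.3.3) (Benjamini-Hochberg adjusted across every tested gene, threshold 0.05). SE was obtained by dividing the size of the log2 fold change by the root of F, and 95% intervals used the total degrees of freedom of the fit. With 2 libraries a group, p-values rest on the sharing of variance between genes. A floor of 3 counts was 0.134 to 0.211 CPM and covers counting error only. Members and lists were chosen with earlier results of these data known. In each other list, up to 4 called falls and 4 called rises averaging at least 3 in log2 CPM were named, with FOXK2, every member, genes overlapping them and the 3 genes nearest to the most changed members. Some genes that this rule names are not reported here. Positions, lengths and composition came from GENCODE v44 (hg38), matched for 36901 of 56655 symbols (65.1%), and promoters from RefSeq. Alternatives were DESeq2 1.42.0, the edgeR exact test, other scalings and filters, offsets by lowess (span 0.2) on composition, the replicate number as a block and leaving out each library. Fits were also run on simulated counts with few changed genes, as many up as down, and no composition trend. That run does not check them under the conditions of these data.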

Additional observations from a re-analysis of the deposited data

How the results depend on the processing

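For the 10 AP-1 genes, 108 of 110 log2 fold changes over 11 alternatives that left out no library stayed in the same direction and on the same side of the threshold. JUN reversed to -0.02 with no filter, and BATF3 was no longer called by DESeq2 (1.50, adjusted p = 0.147). Of 40 values with 1 library left out, 35 were unchanged in this sense. JUN then ran from -0.46 to 0.42, at -0.05 without shCtrl replicate 1 and -0.46 without shFOXK2 replicate 1, ATF3 from -1.39 to -0.30 and BATF3 from 1.36 to 1.69. The lone library of a group was assumed in these fits to vary like the other group. The cause of these changes was not tested. Over the 11 alternatives that left out no library, 7 or 8 members were called. The lowest number of called genes was 6008 of 13625 tested, under the 10-count filter. The highest was 9207 of 35068 tested, where nothing was filtered out. These numbers are therefore not shares of the 16417 genes given above.

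The replicate numbers do not show what they share, and same-numbered libraries deviated from their groups with a correlation of -0.113. Under the replicate block 7270 genes and the same number of members, 8, were called. With the numbers crossed, chosen after seeing the data, 8350 genes and 8 members were called. The block changed no call of a member.

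Counts of calls in other lists moved with the composition offsets, which shifted the median of all genes by 0.18 (GC) and 0.25 (A) and tested only genes with a matched transcript. Among bZIP relatives 3 became 6 with the GC offset and 5 with the A offset, alone or with the replicate block. Among serum response factor genes 2 became 1 with either offset, and ran from 1 to 3 with a library left out. Among turnover regulators 4 became 8 with the GC offset and 8 with the A offset and the replicate block, and ran from 2 to 5 with a library left out. The 9 calls among kinases ran from 2 to 11 with a library left out, and target genes became 9 with at least 10 counts in every library. With the A offset and the replicate block 3 kinases were lower and 4 higher, other immediate early genes were 4 lower and 5 higher, and serum response factor genes 1 lower and 1 higher. Depth limits BATF3, which had at most 27 counts, and the target genes MMP1, MMP3, MMP9, MMP10 and IVL, which were too sparse to test.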
